A study of Homo sapiens with 4 samples.

Results

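The nicotinic acetylcholine receptor subunits measured here are the products of 9 human genes, CHRNA3, CHRNA5, CHRNA6, CHRNA7, CHRNA9, CHRNA10, CHRNB1, CHRNB2 and CHRNB4. Every probe set that the array's probe-to-gene table assigned to these symbols was taken, without regard to its signal. This gave 14 of the 54613 probe sets analysed. Of these, 13 named a single subunit and covered 8 genes. The last, 210123_s_at, named CHRNA7 together with CHRFAM7A, a gene that arose by partial duplication of CHRNA7, and it is described apart and left out of the counts.

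RNA from A549 cells, an established human lung adenocarcinoma line of the non-small cell type, was hybridised to 4 Affymetrix Human Genome U133 Plus 2.0 arrays, 1 array per condition. The conditions were ARRB1 siRNA with nicotine, ARRB1 siRNA with serum starvation alone, control siRNA with nicotine, and control siRNA with serum starvation alone. All cells had been transfected with an siRNA and starved of serum for 36 h, and those of the nicotine arrays were then given 1 µM nicotine for 24 h. No matching 24 h without nicotine is given for the starved arrays, so nicotine and time after starvation cannot be told apart. The ARRB1 product, β-arrestin-1, scaffolds signalling proteins at membrane receptors, and the labels call its siRNA a β-arrestin depletion. The series asks how nicotine changes RNA levels in these cells and how far that depends on β-arrestin-1. With 1 array per condition there was no replicate error, so no p-value is given for any difference. RNA came from whole cultures, so fewer cells with a transcript and less of it per cell cannot be told apart.

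Nicotinic receptors are pentameric cation channels in the cell membrane that open when acetylcholine or nicotine binds at the interface of an α subunit with its neighbour. The α3, α5, α6, β2 and β4 subunits assemble into heteromeric receptors best known in autonomic ganglia and brain. The α7 subunit forms homomeric, calcium-permeable receptors, α9 and α10 act together in cochlear hair cells, and β1 belongs to the receptor of skeletal muscle. Several of them are also found in bronchial epithelium and in lung cancer cells, where nicotine acts as a mitogen and survival signal, and the locus that holds CHRNA5, CHRNA3 and CHRNB4 carries inherited risk for smoking quantity and lung cancer.

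In the RefSeq gene order, CHRNA5, CHRNA3 and CHRNB4 stood next to each other between PSMA4 and ADAMTS7, and CHRNA5 overlapped CHRNA3. CHRNA6 stood next to CHRNB3. No promoter window was examined for CHRNA5 or CHRNA6. Promoter windows of 250 bases before the transcription start were taken from RefSeq (GRCh38.p14) for the other 7 of the 9 genes, with 2 windows for CHRNA7, of which the upstream one is shown. They were searched on both strands for the GC box GGGCGG, whose matches can overlap, and for the E2F motif TTTNNCGC, because E2F1 is among the signalling partners named by the study. The GC box was in 42.6% of all 35116 promoter windows and in those of 4 of the 7 genes, CHRNA3, CHRNA7, CHRNB1 and CHRNB4. The E2F motif was in 5.92% of all windows and in those of 0 of the 7 genes. These letters describe the windows and say nothing of any factor. Sequences are given for 4 genes because CHRNA3 and CHRNB4 are neighbours, CHRNB2 is a common partner of their products and CHRNA7 is read through the shared probe set. GC box matches are in capitals, written CCGCCC where the match lies on the opposite strand.
CHRNA3 (chr15:78620997-78621246, - strand): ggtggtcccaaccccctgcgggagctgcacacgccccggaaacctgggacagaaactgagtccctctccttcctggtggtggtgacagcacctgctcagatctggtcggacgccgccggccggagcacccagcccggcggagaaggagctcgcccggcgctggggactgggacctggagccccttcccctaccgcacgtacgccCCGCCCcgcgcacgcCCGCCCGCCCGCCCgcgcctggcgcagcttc
CHRNB4 (chr15:78641211-78641460, - strand): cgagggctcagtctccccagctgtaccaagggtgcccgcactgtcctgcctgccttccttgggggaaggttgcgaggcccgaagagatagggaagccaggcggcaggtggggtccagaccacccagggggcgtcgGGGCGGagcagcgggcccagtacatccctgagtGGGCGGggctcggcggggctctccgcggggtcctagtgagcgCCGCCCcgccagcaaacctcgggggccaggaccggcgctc
CHRNB2 (chr1:154567528-154567777, + strand): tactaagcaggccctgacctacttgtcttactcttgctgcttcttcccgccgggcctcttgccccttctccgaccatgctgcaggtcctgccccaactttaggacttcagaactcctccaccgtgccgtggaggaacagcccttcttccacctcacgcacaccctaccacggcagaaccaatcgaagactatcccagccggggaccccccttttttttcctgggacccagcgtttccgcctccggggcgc
CHRNA7 (chr15:32030233-32030482, + strand): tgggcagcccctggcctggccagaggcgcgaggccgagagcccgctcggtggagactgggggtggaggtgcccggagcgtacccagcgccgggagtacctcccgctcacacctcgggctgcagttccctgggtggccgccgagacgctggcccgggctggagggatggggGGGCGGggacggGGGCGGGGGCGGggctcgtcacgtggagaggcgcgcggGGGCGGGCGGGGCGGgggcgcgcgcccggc

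GC box matches numbered 4 in the CHRNA3 window, 3 in that of CHRNB4, 0 in that of CHRNB2 and 6 in that of CHRNA7. The GC content was 73.6% for CHRNA3, 72.4% for CHRNB4, 60.4% for CHRNB2 and 80.4% for CHRNA7, against a median of 58% over all windows. CHRNB1 (2 matches, 60.4% GC), CHRNA9 (0 matches, 58% GC) and CHRNA10 (0 matches, 55.2% GC) completed the set.

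The arrays had median signals of 69.0 (ARRB1 siRNA, nicotine), 72.4 (ARRB1 siRNA, starved), 73.3 (control siRNA, nicotine) and 68.6 (control siRNA, starved) in linear MAS5 units. A probe set is called bright here when its geometric mean over the 4 arrays was at or above the median over all probe sets, which was 66.3. The knocked down gene was lower on the ARRB1 siRNA array of both pairs by 6 of its 7 probe sets, and the brightest, 43511_s_at, had 224 and 191 with ARRB1 siRNA (nicotine, starved) against 331 and 352 with control siRNA. Of 12 markers of A549 or lung epithelium 11 were bright, among them KRT8 at 15600 to 19420 and AKR1B10 at 26062 to 36204, while NKX2-1 was not. Of 7 neuronal markers with a probe set 4 were bright (SNAP25, SYT1, RBFOX3 and NEFL, with SNAP25 at 3707 to 4766), as was 1 of 6 skeletal muscle markers, DES, and 0 of 3 leukocyte markers.

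Of the 13 probe sets that name a single subunit, 7 were bright, 1 in each of CHRNA3, CHRNA5, CHRNA6, CHRNA9, CHRNA10, CHRNB1 and CHRNB2, and CHRNB4 had no bright probe set. Signals of different probe sets depend on their probes, so they are not ranked against each other, and each is followed across the arrays instead. The plot of signals on the 4 arrays shows CHRNA5 and CHRNB1 as tight groups of points and CHRNB4 as the widest.

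**Figure D1:**
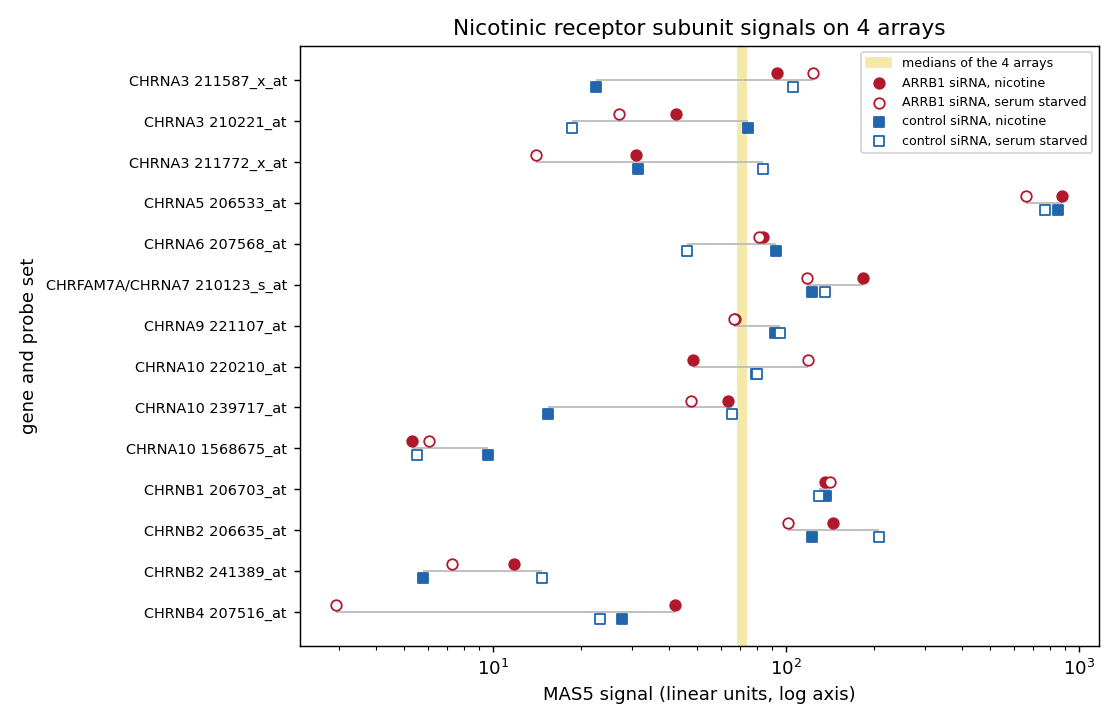
MAS5 signal (linear units, log axis) of the 14 receptor subunit probe sets on each array. Filled symbols are nicotine treated and open symbols serum starved cells, circles are ARRB1 siRNA and squares control siRNA, the grey line joins lowest and highest, and the yellow band spans the array medians of 68.6 to 73.3. CHRNB4 has the widest line, 2.92 to 41.8, and CHRNB1 the narrowest.

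Differences are given as log2 of the first condition over its reference. Each is set against the SD at the signal, which is the SD of the log2 differences of the 1000 probe sets nearest in mean log2 signal in the same 2 arrays. That SD holds array noise together with any real changes among those probe sets. It shrank with signal, so the 2-fold limit that the submitters state means different things for bright and dim probe sets. In nicotine against starved control siRNA cells it was 0.22 at the signal of CHRNA5, 0.60 at that of the bright CHRNA3 probe set and 1.49 at that of CHRNB4. In those windows 0.1%, 9% and 49.6% of probe sets differed by at least 2-fold.

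**Figure D2:**
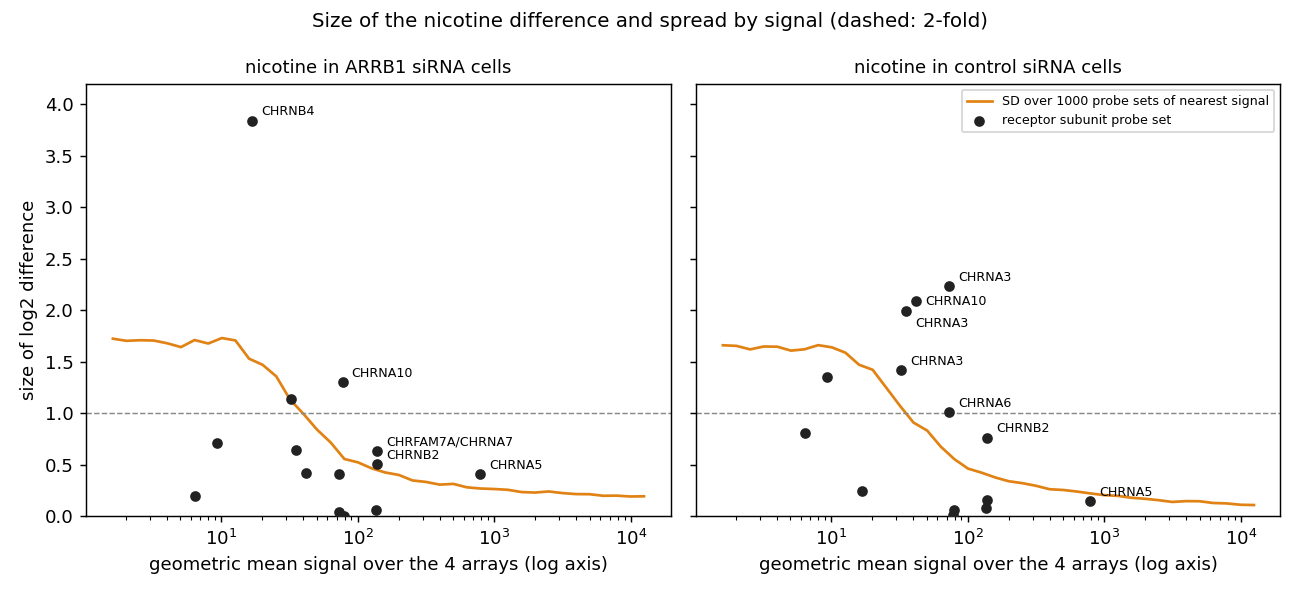
Size of the log2 difference between nicotine treated and serum starved cells (vertical axis) against the geometric mean signal over the 4 arrays (log axis), for each receptor subunit probe set (points) and for the SD over the 1000 probe sets of nearest signal (line), in ARRB1 siRNA cells (left) and control siRNA cells (right). The dashed line is 2-fold. The SD line is above it at the mean signal of CHRNB4, 16.7, and well below it at that of CHRNA5, 786.

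CHRNA5 encodes an accessory subunit that joins other α and β subunits and alters their calcium permeability and desensitisation. Its only probe set, 206533_at, had signals of 879 and 662 in nicotine treated and starved ARRB1 siRNA cells and of 852 and 770 in nicotine treated and starved control siRNA cells. It was thus somewhat higher on both nicotine arrays than on both starved arrays, and its highest signal was 1.33 times its lowest. The nicotine difference was 0.41 in ARRB1 siRNA cells (SD at the signal 0.28) and 0.14 in control siRNA cells (SD 0.22), so that only the first lay beyond the SD. The second was 0.05 with the arrays centred on their medians and 0.15 with quantile normalization. ARRB1 siRNA against control siRNA gave 0.05 in nicotine treated cells and -0.22 in starved cells, both within the SD (0.33 and 0.31). No comparison of CHRNA5 reached 2-fold.

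CHRNA3, the neighbour of CHRNA5, encodes the ligand-binding α subunit of the ganglionic receptor. Its bright probe set, 211587_x_at, had signals of 93.6 and 124 in nicotine treated and starved ARRB1 siRNA cells and of 22.6 and 106 in nicotine treated and starved control siRNA cells. The control siRNA nicotine array was low and the other 3 arrays lay close together. That array alone therefore set both large differences, 2.05 for ARRB1 siRNA in nicotine treated cells (4.15-fold higher, SD 0.66) and -2.23 for nicotine in control siRNA cells (4.70-fold lower, SD 0.60). The 2 comparisons share this array and are not independent. Nicotine in ARRB1 siRNA cells (-0.41, SD 0.63) and ARRB1 siRNA in starved cells (0.23, SD 0.61) stayed within the SD. By the array maker's naming, the ending _x_at marks probes that can also match other transcripts.

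The other CHRNA3 probe sets, both dim, went other ways. Probe set 210221_at had 42.1 and 26.9 in nicotine treated and starved ARRB1 siRNA cells and 74.6 and 18.7 in nicotine treated and starved control siRNA cells, and so was highest on the array where 211587_x_at was lowest. Its nicotine difference in control siRNA cells was 1.99 (SD 1.02), opposite in sign to that of 211587_x_at. Probe set 211772_x_at had 30.9 and 14.1 in nicotine treated and starved ARRB1 siRNA cells and 31.3 and 83.8 in nicotine treated and starved control siRNA cells. It was high only on the control siRNA starved array, with differences of -2.58 for ARRB1 siRNA in starved cells (SD 1.16) and -1.42 for nicotine in control siRNA cells (SD 1.07). Its nicotine difference in ARRB1 siRNA cells, 1.14, passed 2-fold but not the SD of 1.15. The 3 probe sets thus gave no common direction for CHRNA3 under nicotine in control siRNA cells. For ARRB1 siRNA in nicotine treated cells their median was -0.020, where the bright probe set gave 2.05.

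CHRNB4, the third gene of the cluster, encodes the β subunit that pairs with α3 in ganglia. Probe set 207516_at had signals of 41.8 and 2.92 in nicotine treated and starved ARRB1 siRNA cells and of 27.6 and 23.3 in nicotine treated and starved control siRNA cells. The ARRB1 siRNA starved array was far below the other 3, and the highest signal was 14.3 times the lowest. The differences that use this array were 3.84 for nicotine in ARRB1 siRNA cells (SD 1.53) and -3.00 for ARRB1 siRNA in starved cells (SD 1.46). The others, 0.60 for ARRB1 siRNA in nicotine treated cells and 0.24 for nicotine in control siRNA cells, were within the SD. All 4 signals lay below the array medians, and with a floor at the 25th percentile of all signals, 16.5, the first 2 differences shrank to 1.34 and -0.50.

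CHRNB2 encodes the β subunit of the high-affinity nicotine receptor of brain, which also joins α3 and α6. Its bright probe set, 206635_at, had signals of 145 and 102 in nicotine treated and starved ARRB1 siRNA cells and of 123 and 208 in nicotine treated and starved control siRNA cells. The control siRNA starved array was the highest and the ARRB1 siRNA starved array the lowest. ARRB1 siRNA in starved cells gave -1.03 (2.04-fold lower, SD 0.48). In that window 3.8% of probe sets differed by at least 2-fold. Nicotine gave 0.50 in ARRB1 siRNA cells (SD 0.46) and -0.76 in control siRNA cells (SD 0.41), each beyond the SD and opposite in sign, and ARRB1 siRNA in nicotine treated cells gave 0.24 (SD 0.45). The dim probe set 241389_at had 11.8 and 7.26 in nicotine treated and starved ARRB1 siRNA cells and 5.80 and 14.8 in nicotine treated and starved control siRNA cells. It had the same signs as 206635_at in all 4 comparisons (0.71 and -1.35 for nicotine in ARRB1 and control siRNA cells, with siRNA differences of 1.03 and -1.03 in nicotine treated and starved cells), each within its SD of 1.57 to 1.74.

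**Figure D3:**
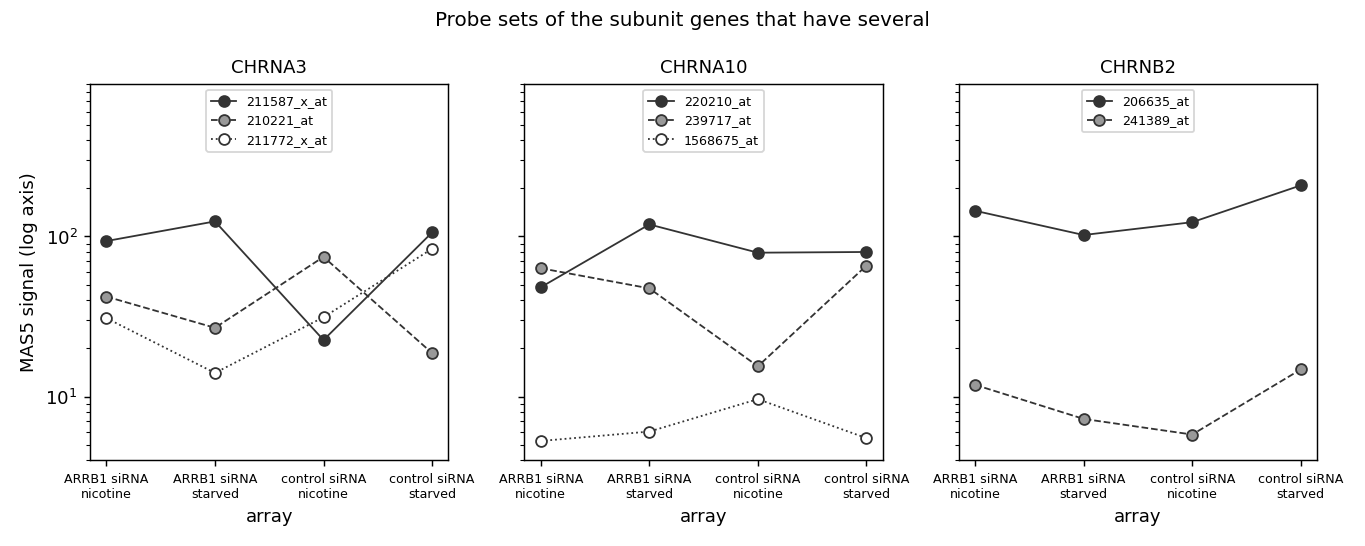
MAS5 signal (log axis) on the 4 arrays of every probe set of CHRNA3, CHRNA10 and CHRNB2, the subunit genes with several probe sets. Each line is 1 probe set. The CHRNA3 lines cross, with 211587_x_at lowest and 210221_at highest at control siRNA nicotine, while both CHRNB2 lines are highest at control siRNA starved, 208 and 14.8.

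CHRNA6 encodes an α subunit of receptors that modulate dopamine release in the brain. Its probe set 207568_at had signals of 83.6 and 81.3 in nicotine treated and starved ARRB1 siRNA cells and of 92.4 and 45.9 in nicotine treated and starved control siRNA cells. The control siRNA starved array was low and the other 3 were close together. Nicotine in control siRNA cells gave 1.01 (SD 0.60), just past 2-fold, and 0.92 once each array was centred on its median. ARRB1 siRNA in starved cells gave 0.83 (SD 0.60), and the comparisons without the low array gave 0.04 and -0.15.

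CHRNB1 encodes the β subunit of the muscle receptor and was the steadiest of the subunits. Its probe set 206703_at had signals of 136 and 141 in nicotine treated and starved ARRB1 siRNA cells and of 137 and 130 in nicotine treated and starved control siRNA cells. All 4 arrays lay within 1.09-fold, and the differences, -0.06 and 0.08 for nicotine in ARRB1 and control siRNA cells and -0.01 and 0.12 for ARRB1 siRNA in nicotine treated and starved cells, were far inside SDs of 0.41 to 0.48. The signs of 3 of them change with the centring of the arrays, so no direction is read from them. DES, the only bright skeletal muscle marker, differed by 0.96 for nicotine in ARRB1 siRNA cells (SD 0.55) and did not reach 2-fold in any comparison.

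The probe set shared by CHRNA7 and CHRFAM7A, 210123_s_at, had signals of 183 and 118 in nicotine treated and starved ARRB1 siRNA cells and of 123 and 136 in nicotine treated and starved control siRNA cells. CHRNA7 is the subunit most studied as the nicotine receptor of lung cancer cells, and the CHRFAM7A product lacks part of its ligand-binding domain. The ARRB1 siRNA nicotine array was the highest. Both differences that use it, 0.63 for nicotine in ARRB1 siRNA cells and 0.58 for ARRB1 siRNA in nicotine treated cells, lay beyond the SD of 0.46, while the nicotine difference of -0.15 in control siRNA cells and the siRNA difference of -0.21 in starved cells did not. No comparison reached 2-fold, and the RNAs of CHRNA7 and CHRFAM7A cannot be told apart here.

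CHRNA9 and CHRNA10 encode the α subunits that form receptors of hair cells. CHRNA9 (221107_at) had signals of 66.9 and 66.7 in nicotine treated and starved ARRB1 siRNA cells and of 91.7 and 95.3 in nicotine treated and starved control siRNA cells. Both ARRB1 siRNA arrays were lower than both control siRNA arrays, with differences of -0.45 in nicotine treated cells (SD 0.61) and -0.52 in starved cells (SD 0.58), within the SD in each pair. Nicotine gave 0.00 in ARRB1 siRNA cells and -0.06 in control siRNA cells.

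CHRNA10 was read by 1 bright and 2 dim probe sets. The bright 220210_at had signals of 48.2 and 119 in nicotine treated and starved ARRB1 siRNA cells and of 79.2 and 80.0 in nicotine treated and starved control siRNA cells. Nicotine gave -1.30 in ARRB1 siRNA cells (2.47-fold lower, SD 0.59) and -0.01 in control siRNA cells (SD 0.57). ARRB1 siRNA gave -0.72 in nicotine treated cells (SD 0.62) and 0.57 in starved cells (SD 0.59). The dim 239717_at had 63.3 and 47.4 in nicotine treated and starved ARRB1 siRNA cells and 15.5 and 65.8 in nicotine treated and starved control siRNA cells. Its low array was thus control siRNA nicotine, which gave 2.03 for ARRB1 siRNA in nicotine treated cells (SD 0.95) and -2.09 for nicotine in control siRNA cells (SD 0.94). The siRNA difference in nicotine treated cells was thus opposite in sign to that of 220210_at. The third probe set, 1568675_at, stayed at 5.29 to 9.64 and within the SD in every comparison. Under nicotine in ARRB1 siRNA cells the bright probe set gave -1.30, and the median over the 3 was -0.20.

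**Figure D4:**
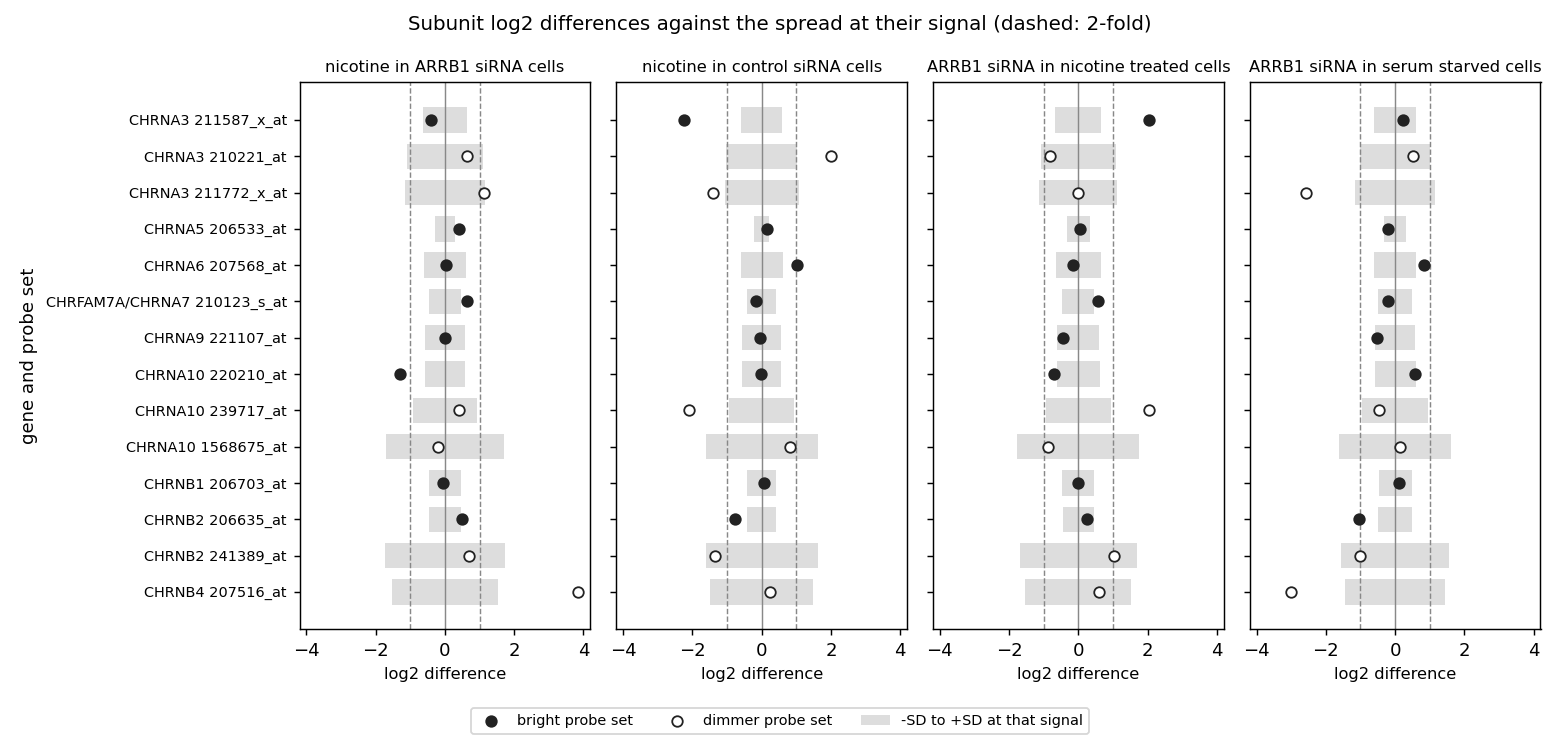
Log2 difference (horizontal axis) of each receptor subunit probe set (rows) in the 4 comparisons. Filled points are bright and open points dim probe sets, the grey bar spans minus to plus the SD at that signal, and dashed lines mark 2-fold. CHRNB1 sits near 0 in every panel, and the points farthest out are CHRNB4 at 3.84 and -3.00.

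Between nicotine treated and starved ARRB1 siRNA cells, 3 of 13 probe sets (23.1%) differed at least 2-fold, CHRNB4 and CHRNA3 211772_x_at higher and CHRNA10 220210_at lower, against 21.5% of all probe sets. CHRNA10 was the only bright member among them, against 2.12% of all bright probe sets and 7.7% of those nearest in signal. Beyond the SD at their signal were 4 of 13 (30.8%), CHRNA5, CHRNB2 206635_at and CHRNB4 above and CHRNA10 220210_at below, against 28.1% of all probe sets. The median was 0.41 over the members, 9 higher and 4 lower, and -0.01 over all probe sets, while over the 7 bright members it was 0.00.

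Between nicotine treated and starved control siRNA cells, 6 of 13 probe sets (46.2%) differed at least 2-fold, 2 higher (CHRNA6 and CHRNA3 210221_at) and 4 lower (CHRNA3 211587_x_at and 211772_x_at, CHRNA10 239717_at and CHRNB2 241389_at). Among all probe sets the share was 20.5%. Of the 7 bright probe sets 1 was higher and 1 lower, CHRNA6 and CHRNA3, against 1.42% of all bright probe sets. Their mean signals, 73.3 and 72.6, were close to the bright limit, and among probe sets of nearest signal 9.2% and 9% differed at least 2-fold. Beyond the SD at their signal were 6 of 13 (46.2%), CHRNA6 and CHRNA3 210221_at above and CHRNA3 211587_x_at and 211772_x_at, CHRNA10 239717_at and CHRNB2 206635_at below, against 28.2% of all probe sets. The median difference was -0.01 over the members and 0.03 over all probe sets. Of the members 6 were higher and 7 lower, so they had no shared direction.

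Between ARRB1 siRNA and control siRNA in nicotine treated cells, 3 of 13 probe sets (23.1%) differed at least 2-fold, all higher with ARRB1 siRNA, namely CHRNA3 211587_x_at, CHRNA10 239717_at and CHRNB2 241389_at, against 22.2% of all probe sets. Of the bright members CHRNA3 alone was among them, against 2.85% of all bright probe sets and 11.5% of those nearest in signal. Beyond the SD were 3 of 13, against 28.2% of all probe sets, CHRNA3 211587_x_at and CHRNA10 239717_at above and CHRNA10 220210_at below. The median was -0.01 over the members and -0.03 over all probe sets.

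Between ARRB1 siRNA and control siRNA in starved cells, 4 of 13 probe sets (30.8%) differed at least 2-fold, all lower with ARRB1 siRNA, namely CHRNB4, CHRNA3 211772_x_at and both CHRNB2 probe sets, against 21.0% of all probe sets. Of the bright members only CHRNB2 206635_at was among them, against 2.30% of all bright probe sets. Beyond the SD were 4 of 13, CHRNA6 above and CHRNB4, CHRNB2 206635_at and CHRNA3 211772_x_at below, against 28.4% of all probe sets. The median was -0.22 over the members and 0.04 over all probe sets, and 0.12 over the bright members. Each array enters 2 of the 4 comparisons, so the counts share arrays. No array held the members at one end, since the highest signal of a probe set fell on the ARRB1 siRNA nicotine, ARRB1 siRNA starved, control siRNA nicotine and control siRNA starved arrays in 2, 3, 3 and 5 cases, and the lowest in 2, 5, 3 and 3 cases.

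Related genes were counted by their brightest probe set, where bright. Among all 12521 such genes 1.45% differed at least 2-fold for nicotine in ARRB1 siRNA cells and 1.05% in control siRNA cells. The siRNA comparison gave 2.28% in nicotine treated cells and 1.80% in starved cells. Among the other receptor subunits 6 of 7 listed genes had a probe set and 2 were bright, CHRNA2 and CHRNG, with 0 at 2-fold in any comparison. The assembly factors, chaperones and prototoxin modulators had 7 bright genes of 18 listed, with 0 at 2-fold. Of 12 genes for acetylcholine synthesis, transport and breakdown 5 were bright and 1 passed 2-fold, BCHE, which encodes butyrylcholinesterase. Its signals (205433_at) were 533 and 519 in nicotine treated and starved ARRB1 siRNA cells and 232 and 273 in nicotine treated and starved control siRNA cells. Both ARRB1 siRNA arrays were higher, by 1.20 in nicotine treated cells (SD 0.39) and 0.92 in starved cells (SD 0.37). None of 5 muscarinic receptors was bright.

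Of 5 listed neighbours of the CHRNA5, CHRNA3 and CHRNB4 cluster, 3 were bright and 0 passed 2-fold, with medians of -0.06 and 0.08 for nicotine in ARRB1 and control siRNA cells and -0.07 and 0.31 for ARRB1 siRNA in nicotine treated and starved cells. Of 10 signalling partners 7 were bright and 1 passed 2-fold, E2F1, a transcription factor of the cell cycle. It did so for nicotine in control siRNA cells, where 1.05% of all 12521 bright genes did. E2F1 (204947_at) had 709 and 545 in nicotine treated and starved ARRB1 siRNA cells, a nicotine difference of 0.38 (SD 0.31). In nicotine treated and starved control siRNA cells it had 738 and 362, a nicotine difference of 1.03 (SD 0.24). The control siRNA starved array was the lowest. ARRB1 siRNA gave 0.59 in starved cells (SD 0.32) and -0.06 in nicotine treated cells (SD 0.34). The 11 bright A549 markers had medians of 0.26 for nicotine in ARRB1 siRNA cells and 0.28 for ARRB1 siRNA in nicotine treated cells. Against these medians SFTPC, a surfactant protein, differed by -1.67 for nicotine in ARRB1 siRNA cells (SD 0.46) and -1.83 for ARRB1 siRNA in nicotine treated cells (SD 0.47). Its signals (38691_s_at) were 54.6 and 174 in nicotine treated and starved ARRB1 siRNA cells and 195 and 153 in nicotine treated and starved control siRNA cells, and its part in the subunit values was not tested. CDH1 and EPCAM were also lower in these comparisons, CDH1 by -0.18 (SD 0.22) and -0.77 (SD 0.27). EPCAM differed by -0.47 (SD 0.31) and -0.28 (SD 0.33). The other bright A549 markers were higher in both. CDH1 was also lower with ARRB1 siRNA in starved cells, by -0.71 (SD 0.25). No bright neuronal marker reached 2-fold, and their median was -0.27 for ARRB1 siRNA in nicotine treated cells and -0.46 in starved cells. The markers did not share a direction. In nicotine treated and starved cells SNAP25 was higher with ARRB1 siRNA, by 0.32 (SD 0.26) and 0.30 (SD 0.24). SYT1 (-0.57 and -0.55) and RBFOX3 (-0.65 and -0.53) were lower, and NEFL gave 0.04 and -0.40.

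For the 4 genes with a bright probe set at 2-fold, the genes with the most similar pattern over the 4 arrays were searched among 12520 others, by the Euclidean distance of log2 signals centred on their mean. Each pattern has only 4 points, so these are descriptions. Nearest to CHRNA3 211587_x_at were LOC100505915, LOC401312 and RASAL1, at 0.51 to 0.57. Nearest to CHRNA6 were BTG2-DT, LOC100507395 and TAC3, at 0.08 to 0.09. Nearest to CHRNA10 220210_at were PAPPA2, TMIGD2 and PYCARD-AS1, at 0.11 to 0.18. Nearest to CHRNB2 206635_at were BDH1, PAQR9 and OSBPL6, at 0.16 to 0.20. The distances were largest for CHRNA3 and smallest for CHRNA6. Patterns were centred but not scaled, so a distance can grow with the range of the pattern. The highest signal was 5.51 times the lowest for CHRNA3 211587_x_at and 2.01 times for CHRNA6. The order of the distances is therefore not read as closeness of match.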

How the data were processed

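RNA of A549 cells was measured on 4 arrays, 1 per condition, and every array was mapped to its condition from its labels. The deposited values are linear signal intensities, which the authors made with MAS5 (GCOS 1.4, as the submitters' processing notes give it), and their trimmed mean, without the top and bottom 2%, was 500.1 on each array. The methods also describe a log2 transformation and centring of genes, neither of which is in these values. Detection calls were not used here, so a dim signal was not separated from background. The number of arrays limits the precision.

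Of 54675 probe sets 62 controls were left out. Log2 differences, the SD over 1000 probe sets of nearest signal, list counts and motif matches were obtained in Python 3.11.15 (pandas 2.3.3, numpy 2.4.6, matplotlib 3.10.9). The calculation of the SD was checked on simulated data with a known spread. That check cannot show whether the SD stands in for a replicate error in these arrays. Related genes were represented by their brightest probe set among 41091 with 1 symbol (19775 genes, 12521 bright). The text names all 9 subunit genes, up to 4 members of each related list that were bright and at least 2-fold apart, the 3 genes most alike, and markers. Names of other marker genes were chosen after their values were seen. The subunits and lists (other subunits, assembly and modulator genes, acetylcholine genes, muscarinic receptors, cluster neighbours, signalling partners, markers of A549 cells, neurons, skeletal muscle and leukocytes) were chosen with earlier results of these data known. Alternatives were array centring, quantile normalization, floors on the signal, other fold limits, another window or spread measure, the median over a gene's probe sets, and counting the CHRNA7 and CHRFAM7A probe set.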

Additional observations from a re-analysis of the deposited data

Results flagged for a closer look

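Of the 14 receptor subunit probe sets, 8 had nicotine differences of opposite sign in ARRB1 siRNA and control siRNA cells, as had 47.2% of all 54613 probe sets. With 1 array per condition the difference between the 2 siRNAs was not tested for any of them. The values below are the log2 nicotine difference in control siRNA cells minus that in ARRB1 siRNA cells.

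Among these 8 the largest gaps were those of CHRNA3 211772_x_at, at -2.56 (1.14 in ARRB1 siRNA and -1.42 in control siRNA cells), and CHRNA10 239717_at, at -2.51 (0.42 in ARRB1 siRNA and -2.09 in control siRNA cells). Both CHRNB2 probe sets were among the 8, 206635_at at -1.27 (0.50 in ARRB1 siRNA and -0.76 in control siRNA cells) and 241389_at at -2.06 (0.71 in ARRB1 siRNA and -1.35 in control siRNA cells). CHRNA10 1568675_at stood at 1.00 (-0.20 in ARRB1 siRNA and 0.81 in control siRNA cells) and the CHRNA7 and CHRFAM7A probe set at -0.79 (0.63 in ARRB1 siRNA and -0.15 in control siRNA cells). CHRNB1, at 0.13, and CHRNA9, at -0.061, had opposite signs with differences near 0 in both cells. Of the 8, only CHRNB2 206635_at lay beyond the SD at its signal in both siRNAs.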

How the results depend on the processing

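The number of subunit probe sets at least 2-fold apart depended most on a floor on the signal and on the fold limit. For nicotine in control siRNA cells (6 of 13) it was 0 with a floor at the median signal, 70.7, and 3 with a 3-fold limit (11.8% of all probe sets). For nicotine in ARRB1 siRNA cells (3) it was 0 with that floor, 5 with a 1.5-fold limit (34.8% of all probe sets) and 1 with a 3-fold limit (12.6%). For ARRB1 siRNA in starved cells (4) it was 2 with a floor at the 25th percentile, 16.5 (7.82% of all probe sets), 1 with the floor at the median and 2 with a 3-fold limit (11.8%). For ARRB1 siRNA in nicotine treated cells (3) it was 0 with the floor at the median and 7 with a 1.5-fold limit (36.3% of all probe sets). The number beyond the SD there (3) was 1 with the floor at the median. The share of all probe sets beyond the SD with that floor was not obtained, so this fall is not read further. The floor at the median also left only 0.355% to 0.938% of all probe sets at 2-fold. CHRNA3 in ARRB1 siRNA against control siRNA nicotine treated cells was 2.05 by its brightest probe set and -0.020 by the median over its probe sets.

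Centring of the arrays shifts all differences of a comparison equally, by -0.09 to 0.09. The smallest SD at the signal was 0.22, so centring could not move any difference by its SD. Quantile normalization moved 56 of 56 single differences by less than the SD at the signal. Both settings took CHRNA6 under 2-fold for nicotine in control siRNA cells, leaving 5 of the 6. For the 6 dim probe sets the SD at the signal was 0.93 or more, so a 2-fold difference lies about 1 SD from 0 or closer. No paired analysis was possible because each condition has 1 array and the labels give no replicate numbers.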
